A study of Chlorocebus aethiops with 8 samples.

Results

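Aminoacyl-tRNA synthetases were read by 48 of the 52865 probe sets on the arrays, and these stood for 25 of the 14132 genes that the probe annotation names singly. A probe set, a group of short probes for 1 transcript, was included when its single gene symbol was a letter followed by ARS and an optional 1 or 2, or was FARSA, FARSB, EPRS or EPRS1 (no probe set carried either of the last). Symbols ending in 2 were taken as mitochondrial enzymes (14 genes, 24 probe sets) and all others as cytosolic enzymes (11 genes, 24 probe sets). GARS1 and KARS1, counted as cytosolic, are known to encode both a cytosolic and a mitochondrial enzyme.

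Aminoacyl-tRNA synthetases attach each amino acid to its own tRNA, which is the step that fixes the meaning of the genetic code. Animal cells run this chemistry in the cytosol and again inside mitochondria, mostly with separate nuclear genes, and mitochondrial enzymes are made on cytosolic ribosomes and then imported. Several cytosolic synthetases are held in the multisynthetase complex, and many cytosolic synthetase genes are known to be induced by ATF4, the transcription factor of the amino acid response.

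The series measured RNA of COS cells, a kidney line of the African green monkey that carries SV40 large T antigen, on 8 rhesus macaque arrays. Its title names changes in polysome loading, the share of an mRNA bound to several ribosomes, after downregulation of RNA helicase A (RHA, gene DHX9). The 4 groups of 2 arrays were polysomal RNA under RHA siRNA, polysomal RNA under control siRNA, cytoplasmic RNA under RHA siRNA and cytoplasmic RNA under control siRNA. All cells were transfected 2 times with siRNA at 0.5 nM, on 7 plates, the controls with scrambled RHA sequences, and the RHA siRNAs were designed on the human coding sequence. Values are deposited intensities on a linear scale, and 2 values of a group are always given as replicate 1 and then replicate 2. After the first transfection all cells had 4 h without serum and 24 h in medium with 10% serum. Polysomal RNA came from sucrose gradients. The 4 arrays of each replicate number are called set 1 and set 2.

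DHX9 had intensities of 97.2 and 269 under RHA siRNA and of 359 and 477 under control siRNA in polysomal RNA. In cytoplasmic RNA they were 130 and 254 under RHA siRNA and 244 and 342 under control siRNA. The targeted transcript was thus lower in both sets and both fractions, with a log2 fold change of -1.01 over both (SE 0.42, adjusted p in limma = 1.00, or 0.162 with set as a term).

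The arrays were not alike. Median intensity was 19.3 to 20.8, but 51.3% of the tested probe sets differed between set 1 and set 2 in limma, among them 16 of the 38 tested synthetase probe sets. Under control siRNA, the cytoplasmic array of set 1 had the lowest median correlation with its own set (r = 0.949, against 0.967 to 0.980 for the other 7 arrays). For actin and GAPDH, the log2 signal at the 3′ end minus that at the 5′ end, a sign of RNA integrity, also moved with the comparisons in set 1. It shifted by 1.67 (log2) under RHA siRNA in polysomal RNA and by -1.35 in cytoplasmic RNA of set 1, against -0.36 and -0.37 in set 2. Among markers, 5 of 11 listed for kidney tubule epithelium (with KRT8 and PAX8) were bright enough to be tested and CDH1, LRP2 and UMOD were not, and 5 of 6 mesenchymal markers were. Of 3 leukocyte markers with a probe set, CD14 and CD68 were above the limit and PTPRC was below it.

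Of the 48 synthetase probe sets, 38 belonged to the brighter 50% by mean log2 over all 8 arrays (26383 probe sets, mean log2 of at least 4.32, an intensity of 19.9) and were tested. All 25 genes had at least 1 tested probe set, and the brightest stands for a gene below. The 10 dim probe sets belonged to CARS2, EARS2 (2 of them), FARS2, LARS1, RARS2 (2 of them), WARS1, WARS2 and YARS1, with intensities between 4.90 and 25.2. Levels of different genes are not compared, since probes differ in brightness.

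**Figure D1:**
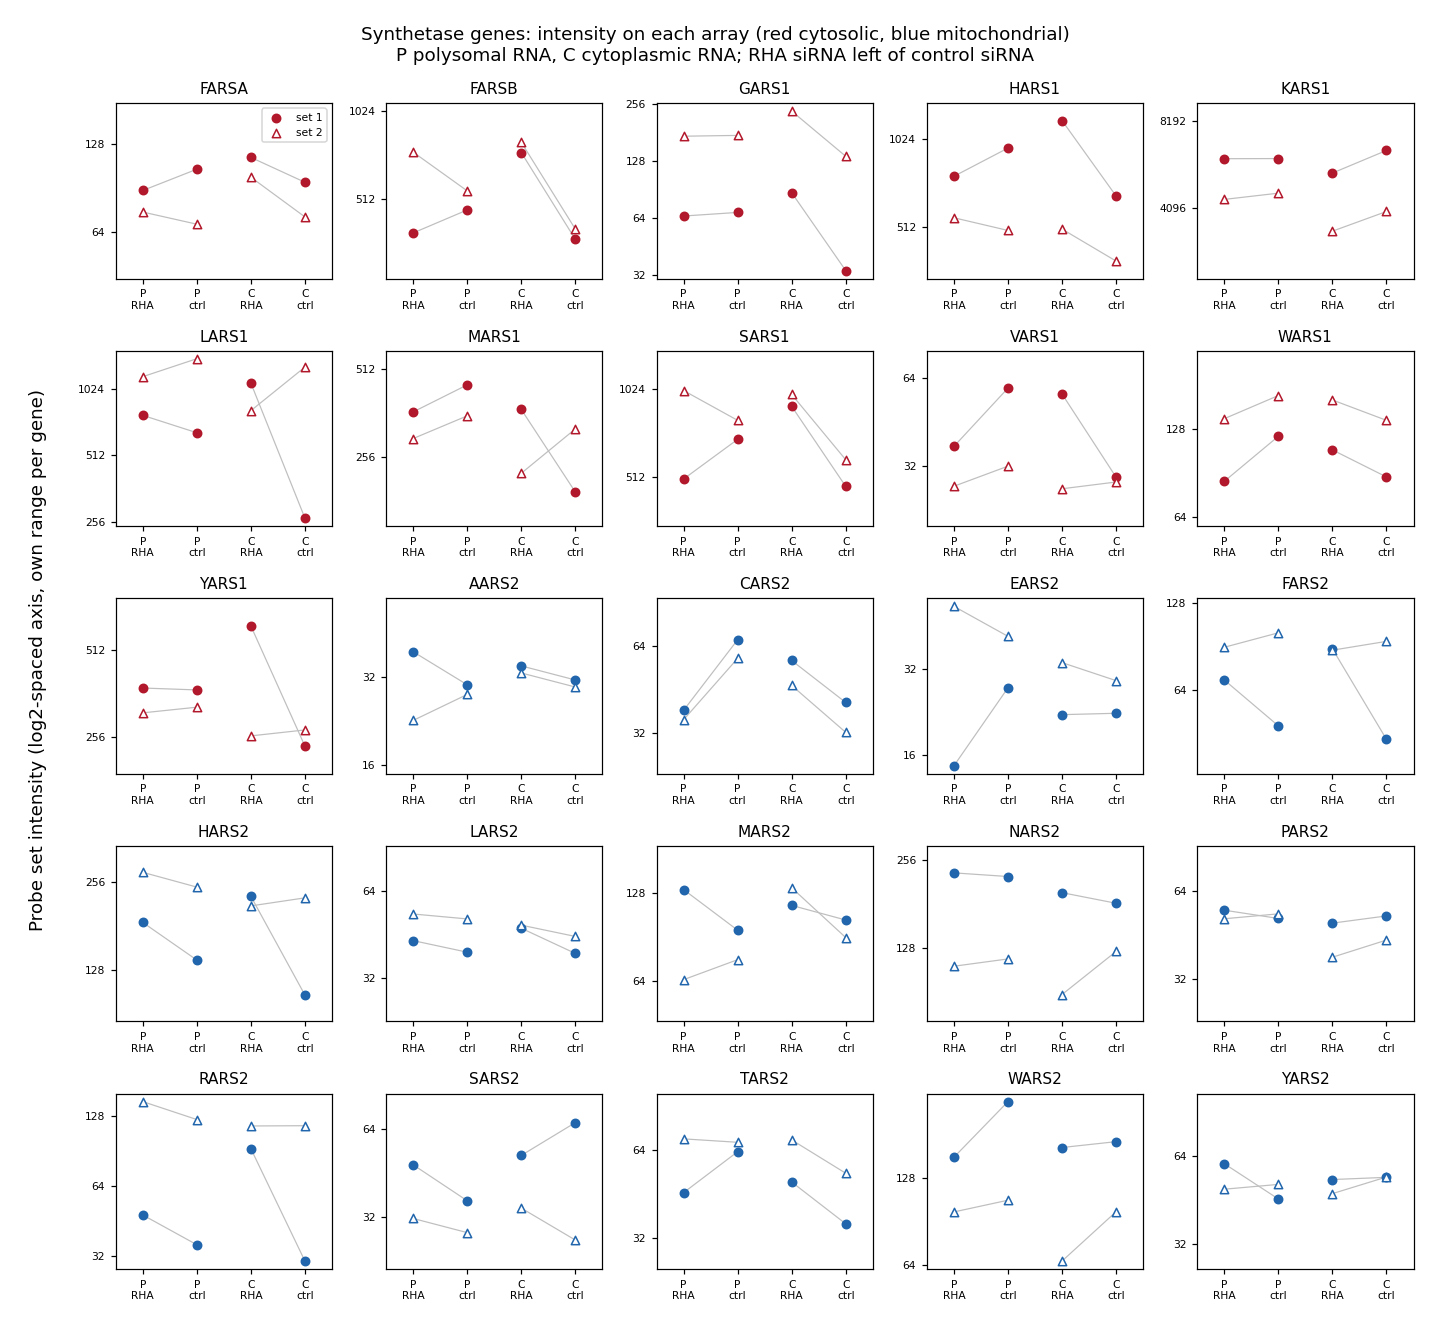
Intensity (vertical axis, log2-spaced, own range for each gene) of the brightest probe set of 25 synthetase genes in 4 groups, with polysomal RNA (P) on the left, cytoplasmic RNA (C) on the right and RHA siRNA left of control siRNA. Filled circles are set 1 and open triangles set 2, grey lines join arrays of a set and fraction, red marks cytosolic and blue mitochondrial enzymes. FARSB in cytoplasmic RNA stands at 738 and 801 under RHA siRNA, above 372 and 403 under control siRNA.

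Most cytosolic synthetase transcripts read higher in cytoplasmic RNA of cells given RHA siRNA, and in polysomal RNA most read slightly lower, without any passing the test. The median log2 fold change of the 11 cytosolic genes was -0.05 in polysomal RNA and 0.61 in cytoplasmic RNA, where all genes had medians of -0.00 and 0.06. In cytoplasmic RNA 10 of 11 lay above 0, against 56.1% of all 10106 genes. The exception was KARS1, by its brightest probe set only. In polysomal RNA 1 lay above 0 (FARSB), against 49.7%. The size depended on the set: the cytoplasmic median was 0.94 in set 1 and 0.23 in set 2. When the array that stood apart was left out it was 0.46 with 8 of 11 genes above 0, or 0.27 with set as a term and again 8 of 11. The part of the 3′ to 5′ shift of actin and GAPDH (-1.35 in set 1 and -0.37 in set 2) was not tested. The limma fit over 4 groups called 0 of the 38 synthetase probe sets in cytoplasmic RNA, where the background was 0% of all probe sets, and 1 had an unadjusted p under 0.05 (background 1.61%). With set as a term it called 0 (background 0%), and 8 were at an unadjusted p under 0.05 (background 12%).

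FARSB, the beta subunit of cytosolic phenylalanyl-tRNA synthetase, had the smallest p in that comparison. Its intensity in cytoplasmic RNA was 738 and 801 under RHA siRNA, against 372 and 403 under control siRNA, with no overlap. In polysomal RNA it was 391 and 741 under RHA siRNA, against 469 and 545 under control siRNA, so the sets went opposite ways there. Mean log2 intensity was 9.59 ± 0.08 under RHA siRNA and 8.60 ± 0.08 under control siRNA in cytoplasmic RNA (SD, n = 2 each). The FARSB fold change in cytoplasmic RNA was 1.99 (log2 0.99, SE 0.39, and 0.99 in each set; adjusted p in limma = 1.00, or 0.306 with set as a term).

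FARSA, the alpha subunit that carries the active site, had a smaller difference. Its cytoplasmic intensity was 116 and 98.8 under RHA siRNA, against 94.9 and 72.2 under control siRNA, with no overlap (log2 0.37, SE 0.36). In polysomal RNA FARSA gave 88.9 and 75.0 under RHA siRNA and 105 and 68.1 under control siRNA, which overlap.

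SARS1, the cytosolic seryl-tRNA synthetase that also charges the selenocysteine tRNA, had the next smallest p. In cytoplasmic RNA it read 896 and 985 under RHA siRNA, against 476 and 588 under control siRNA. In polysomal RNA it read 504 and 1016 under RHA siRNA, against 690 and 802 under control siRNA. Only the cytoplasmic groups were apart (log2 0.83, SE 0.41, with 0.91 in set 1 and 0.74 in set 2).

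GARS1, the glycyl-tRNA synthetase of both compartments, had the smallest p in cytoplasmic RNA once set was a term, and is detailed here after its values were seen. Its cytoplasmic intensity was 87.1 and 235 under RHA siRNA, against 33.9 and 136 under control siRNA. In polysomal RNA it read 65.6 and 173 under RHA siRNA, against 68.5 and 175 under control siRNA. Set 2 was brighter throughout, so the groups overlapped, while within each set the cytoplasmic value was higher under RHA siRNA (log2 1.36 and 0.79 in sets 1 and 2). The mean GARS1 difference was 1.08 (SE 0.92, adjusted p in limma = 1.00, or 0.275 with set as a term). Without the array that stood apart it was 0.077, or 0.77 with set as a term.

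Among the remaining cytosolic enzymes, HARS1 (histidine) and WARS1 (tryptophan, known as an interferon-inducible gene) were also higher in cytoplasmic RNA in both sets, at 0.86 and 0.37 for HARS1 and 0.31 and 0.23 for WARS1 (log2, set 1 then set 2). LARS1 (leucine), MARS1 (methionine), VARS1 (valine) and YARS1 (tyrosine) were above 0 in set 1 and below 0 in set 2. LARS1 showed this most, with 2.03 in set 1 and -0.65 in set 2, and its mean of 0.69 became -0.45 without the array that stood apart (-0.23 with set as a term). In all, 6 of 11 cytosolic genes were above 0 in both sets in cytoplasmic RNA (background 29.3% of all genes) and 1 was below 0 in both (background 24.1%). In polysomal RNA 0 were above 0 in both sets (background 27.3%) and 5 were below 0 in both (GARS1, KARS1, MARS1, VARS1 and WARS1; background 27.4%). In cytoplasmic RNA 3 cytosolic genes (FARSA, FARSB and SARS1) and 4 mitochondrial genes (AARS2, CARS2, LARS2 and MARS2) were higher under RHA siRNA without overlap (background 11.6%), and YARS2 was lower (background 8.88%). In polysomal RNA 0 were higher without overlap (background 7.97%) and CARS2 was lower (background 9.03%). Limma called 0 of the 38 synthetase probe sets in polysomal RNA with or without set as a term (background 0% each), with 0 and 2 at an unadjusted p under 0.05 (background 0.519% without the term and 5.06% with it).

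**Figure D2:**
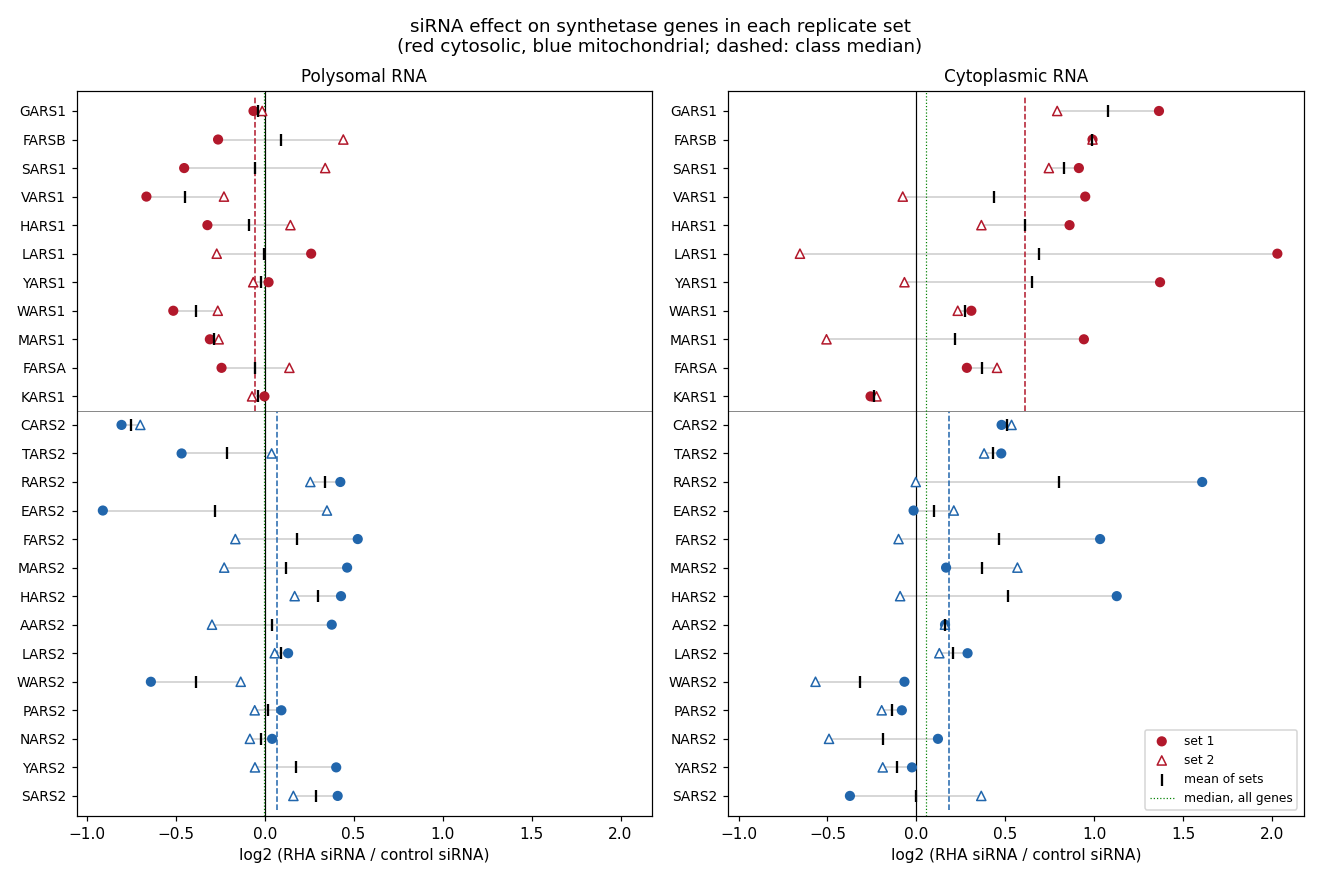
Log2 ratio of RHA siRNA over control siRNA (horizontal axis) for 25 synthetase genes in polysomal RNA (left) and cytoplasmic RNA (right), with set 1 as filled circles, set 2 as open triangles, their mean as a black tick and the class median as a dashed line. The cytosolic median lies at -0.05 in polysomal RNA and at 0.61 in cytoplasmic RNA, and LARS1 spans 2.03 in set 1 and -0.65 in set 2.

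KARS1 is the lysyl-tRNA synthetase of both compartments and a member of the multisynthetase complex. With LARS2 and WARS2 it was 1 of 3 synthetase genes with the same sign in both sets and both fractions. The share of all genes with such a pattern was not computed. Above 0 in both sets were 29.3% of all genes in cytoplasmic RNA and 27.3% in polysomal RNA, and below 0 in both were 24.1% and 27.4%. The brightest KARS1 probe set read 6065 and 4397 under RHA siRNA, against 6071 and 4618 under control siRNA, in polysomal RNA. In cytoplasmic RNA it read 5414 and 3420 under RHA siRNA, against 6474 and 3996 under control siRNA. The groups overlapped in both fractions, and over both fractions the log2 fold change was -0.14 (SE 0.30). The other 3 KARS1 probe sets went the opposite way in cytoplasmic RNA, with log2 fold changes of 0.66, 1.36 and 1.43. A KARS1 direction can therefore not be given.

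Mitochondrial synthetases went both ways. As a median, their log2 difference between RHA and control siRNA came to 0.07 in polysomal RNA (0.25 in set 1 and -0.06 in set 2) and 0.18 in cytoplasmic RNA (0.16 in set 1 and 0.06 in set 2). In cytoplasmic RNA 9 of 14 lay above 0 over both sets (background 56.1%). There 5 of 14 were above 0 in both sets (AARS2, CARS2, LARS2, MARS2 and TARS2; background 29.3%) and 3 were below 0 in both (PARS2, WARS2 and YARS2; background 24.1%). In polysomal RNA 4 were above 0 in both sets (HARS2, LARS2, RARS2 and SARS2; background 27.3%) and 2 below (CARS2 and WARS2; background 27.4%).

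CARS2, the mitochondrial cysteinyl-tRNA synthetase, was the 1 synthetase gene whose siRNA groups did not overlap in either fraction. Among all genes, 11.6% were higher and 8.88% lower under RHA siRNA without overlap in cytoplasmic RNA. In polysomal RNA these shares were 7.97% and 9.03%. The share of all genes without overlap in both fractions was not computed. CARS2 read 38.4 and 35.6 under RHA siRNA, against 67.1 and 57.9 under control siRNA, in polysomal RNA. In cytoplasmic RNA it read 56.9 and 46.8 under RHA siRNA, against 40.9 and 32.3 under control siRNA. It was lower under RHA siRNA in polysomal RNA and higher in cytoplasmic RNA. Mean log2 intensity was 5.21 ± 0.08 under RHA siRNA and 5.96 ± 0.15 under control siRNA in polysomal RNA, and 5.69 ± 0.20 under RHA siRNA and 5.18 ± 0.24 under control siRNA in cytoplasmic RNA (SD, n = 2 each). The log2 fold changes of CARS2 were -0.75 in polysomal RNA and 0.51 in cytoplasmic RNA (SE 0.32 each, adjusted p in limma = 1.00 each). A second CARS2 probe set was too dim to be tested, at 16.2 to 23.4 on all arrays.

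WARS2, the mitochondrial tryptophanyl-tRNA synthetase, was lower under RHA siRNA in both fractions of both sets. It read 151 and 97.4 under RHA siRNA, against 235 and 107 under control siRNA, in polysomal RNA. In cytoplasmic RNA it read 163 and 65.9 under RHA siRNA, against 170 and 97.6 under control siRNA. The groups overlapped because set 1 was brighter, and the log2 fold change over both fractions was -0.35 in each set (SE 0.44, adjusted p in limma = 1.00, or 0.500 with set as a term).

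LARS2, the mitochondrial leucyl-tRNA synthetase, was higher under RHA siRNA in both fractions of both sets, by small amounts. It read 43.2 and 53.3 under RHA siRNA, against 39.4 and 51.2 under control siRNA, in polysomal RNA. In cytoplasmic RNA it read 47.6 and 48.8 under RHA siRNA, against 39.0 and 44.6 under control siRNA, with no overlap there. Its log2 fold change over both fractions was 0.15 (SE 0.22, adjusted p in limma = 1.00).

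HARS2, the mitochondrial histidyl-tRNA synthetase, differed mainly in set 1. In polysomal RNA it read 187 and 277 under RHA siRNA, against 139 and 247 under control siRNA, and in cytoplasmic RNA 229 and 213 under RHA siRNA, against 105 and 227 under control siRNA. The groups overlapped in both fractions. Over both fractions the log2 fold change was 0.78 in set 1 and 0.04 in set 2.

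Over both fractions, limma called 0 of the 38 synthetase probe sets (background 0%), also with set as a term (background 0.00758%), and 0 and 3 had an unadjusted p under 0.05 (background 2.05% without the term and 12% with it). The median log2 fold change over both fractions was 0.26 for cytosolic and 0.10 for mitochondrial genes, against 0.03 for all genes. In set 2 it was -0.02 for cytosolic and -0.01 for mitochondrial genes. Above 0 were 7 of 11 cytosolic and 9 of 14 mitochondrial genes (background 53.8%). In both sets 5 cytosolic and 6 mitochondrial genes were above 0 (background 28.1%), and 2 and 2 were below (background 25.5%). Over both fractions no synthetase gene was higher (background 1.86%) or lower (background 1.46%) on all 4 arrays without overlap.

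The change in polysome loading, the log2 siRNA effect in polysomal RNA minus that in cytoplasmic RNA, was below 0 for most cytosolic synthetases. It was below 0 for 10 of 11 cytosolic genes and 10 of 14 mitochondrial genes. Among all genes 46.8% were above 0. The median was -0.69 for cytosolic genes, -0.17 for mitochondrial genes and -0.03 for all genes. By set, the cytosolic median was -1.25 in set 1 and -0.22 in set 2, and the mitochondrial median was -0.33 in set 1 and 0.04 in set 2. In both sets, 7 of 11 cytosolic genes were below 0 (FARSA, FARSB, GARS1, HARS1, SARS1, VARS1 and WARS1) and 4 of 14 mitochondrial genes (CARS2, FARS2, LARS2 and TARS2), where the background was 28.2% of all genes. KARS1, PARS2 and YARS2 were above 0 in both sets (background 26.9%). The dimmer KARS1 probe sets were below 0 in both sets. The 3′ to 5′ difference of actin and GAPDH moved by 3.02 (log2) in the same contrast in set 1 and by 0.01 in set 2. Its part in the loading values was not tested.

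Limma called 0 of the 38 synthetase probe sets for loading, with or without set as a term (background 0% each). At an unadjusted p under 0.05 there was 1, CARS2 (background 0.174%), and with set as a term there were 4, of CARS2, GARS1 and KARS1 (2 dimmer probe sets; background 3.97%). CARS2 had a loading change of -1.26 (SE 0.45; -1.28 and -1.23 in sets 1 and 2; unadjusted p = 0.0281 and adjusted p = 1.00 in limma). FARSB had -0.90 (SE 0.55; -1.25 in set 1 and -0.55 in set 2), SARS1 -0.88 (SE 0.59; -1.37 in set 1 and -0.40 in set 2) and GARS1 -1.12 (SE 1.30; -1.43 in set 1 and -0.81 in set 2). When the control array of set 1 was left out of the cytoplasmic group, loading values were -1.43 for CARS2, -0.84 for FARSB, -0.73 for SARS1 and -0.12 for GARS1 (-0.81 with set as a term). FARSB and SARS1 moved more with the polysomal RHA siRNA arrays: without that of set 1 they were -0.44 and -0.38, and without that of set 2 -1.36 and -1.39. Without the cytoplasmic control array that stood apart, the cytosolic median was -0.58, with 10 of 11 below 0, and the mitochondrial median -0.14, with 9 of 14 below 0. With set as a term and without that array, the medians were -0.51 for cytosolic and -0.06 for mitochondrial genes, with 8 of 11 and 7 of 14 below 0. Without that array FARS2, HARS2, LARS1 and SARS2 changed sign for loading both with and without set as a term.

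**Figure D3:**
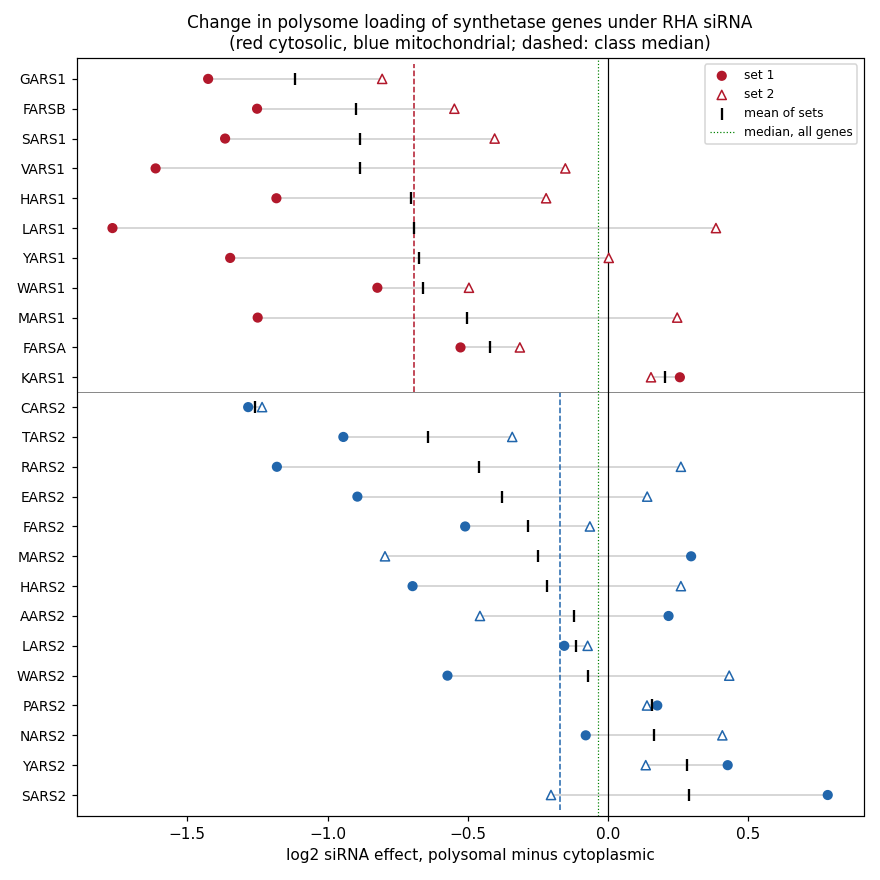
Change in polysome loading (horizontal axis, log2 siRNA effect in polysomal minus cytoplasmic RNA) of 11 cytosolic (red, top) and 14 mitochondrial (blue, bottom) synthetase genes, with set 1 as filled circles, set 2 as open triangles and their mean as a black tick. The dashed class medians stand at -0.69 and -0.17, the dotted median of all genes at -0.03, and set 1 lies further below 0 than set 2 for most cytosolic genes.

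The mean loading change was above 0 for 5 of 25 genes (background 46.8%). These were the cytosolic KARS1, by its brightest probe set only, and the mitochondrial NARS2, PARS2, SARS2 and YARS2. Of these, YARS2, SARS2 and PARS2 had the smallest p. YARS2, the tyrosyl enzyme, read 60.4 and 49.4 under RHA siRNA, against 45.7 and 51.3 under control siRNA, in polysomal RNA, and 53.3 and 47.7 under RHA siRNA, against 54.2 and 54.4 under control siRNA, in cytoplasmic RNA. Its cytoplasmic groups did not overlap, its polysomal groups did, and its loading change was 0.28 (SE 0.43). PARS2, the prolyl enzyme, read 55.1 and 51.4 under RHA siRNA, against 51.6 and 53.5 under control siRNA, in polysomal RNA, and 49.7 and 38.0 under RHA siRNA, against 52.6 and 43.5 under control siRNA, in cytoplasmic RNA. The PARS2 loading change was 0.16 (SE 0.44), with overlapping groups in both fractions.

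SARS2, the mitochondrial seryl enzyme, read 48.2 and 31.6 under RHA siRNA, against 36.3 and 28.2 under control siRNA, in polysomal RNA. In cytoplasmic RNA it read 51.9 and 34.3 under RHA siRNA, against 67.3 and 26.6 under control siRNA. Its loading change was 0.78 in set 1 and -0.20 in set 2, and the mean of 0.29 (SE 0.76) became -0.38 when set 1's cytoplasmic control array was left out.

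The same arrays can be read as the ratio of polysomal over cytoplasmic signal under each siRNA. Because the cytoplasmic control arrays enter this ratio, the cytoplasmic siRNA effect and the loading change alike, the 3 readings are not independent. For cytosolic synthetases the median log2 ratio was -0.28 under RHA siRNA (-0.48 in set 1 and 0.04 in set 2) and 0.45 under control siRNA (0.55 in set 1 and 0.26 in set 2). For mitochondrial synthetases it was -0.03 under RHA siRNA and 0.13 under control siRNA, and for all genes 0.02 under RHA siRNA and 0.08 under control siRNA. When the array that stood apart was left out, the cytosolic median under control siRNA was 0.33, or 0.22 with set as a term. The mitochondrial median was then 0.11, or -0.04 with set as a term. Under control siRNA the 3′ to 5′ difference shifted by -2.00 in set 1 and 0.51 in set 2, and its part was not tested. Above 0 were 3 of 11 cytosolic and 6 of 14 mitochondrial genes under RHA siRNA (background 52%), and 11 of 11 and 10 of 14 under control siRNA (background 61.8%). Without the array that stood apart, the counts under control siRNA were 9 of 11 and 8 of 14, or 10 of 11 and 7 of 14 with set as a term. Under control siRNA 9 of 11 cytosolic and 8 of 14 mitochondrial genes were above 0 in both sets (background 35.4%). Under RHA siRNA 1 cytosolic gene (KARS1) and 3 mitochondrial genes (NARS2, PARS2 and YARS2) were above 0 in both sets (background 32.3%). Under control siRNA the polysomal arrays were higher without overlap for 7 genes: CARS2, FARSB, MARS1, SARS1, TARS2, VARS1 and YARS1 (background 10.2%), and YARS2 was lower (background 4.58%). Under RHA siRNA this held for PARS2 alone (background 9.83%), while CARS2 and FARSA were lower without overlap (background 7.63%).

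Limma called 0 of the 38 probe sets for the ratio under RHA siRNA, under control siRNA or over both, with or without set as a term (background 0% each). Under control siRNA 1 had an unadjusted p under 0.05 without the term (background 0.208%) and 6 with it (background 4.12%), and under RHA siRNA there were 0 without it (background 0.265%) and 0 with it (background 4.46%). Over both siRNAs there were 0 without the term (background 0.224%) and 0 with it (background 4.02%). The median log2 ratio over both siRNAs was 0.11 for cytosolic, 0.10 for mitochondrial and 0.07 for all genes, and the 3 lay close together. Above 0 were 9 of 11 cytosolic and 8 of 14 mitochondrial genes (background 63.2%). In both sets 5 and 6 were above 0 (background 40%), and 1 and 2 were below (background 19.8%). On all 4 arrays without overlap 0 were higher (background 0.386%) and 0 lower (background 0.356%).

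**Figure D4:**
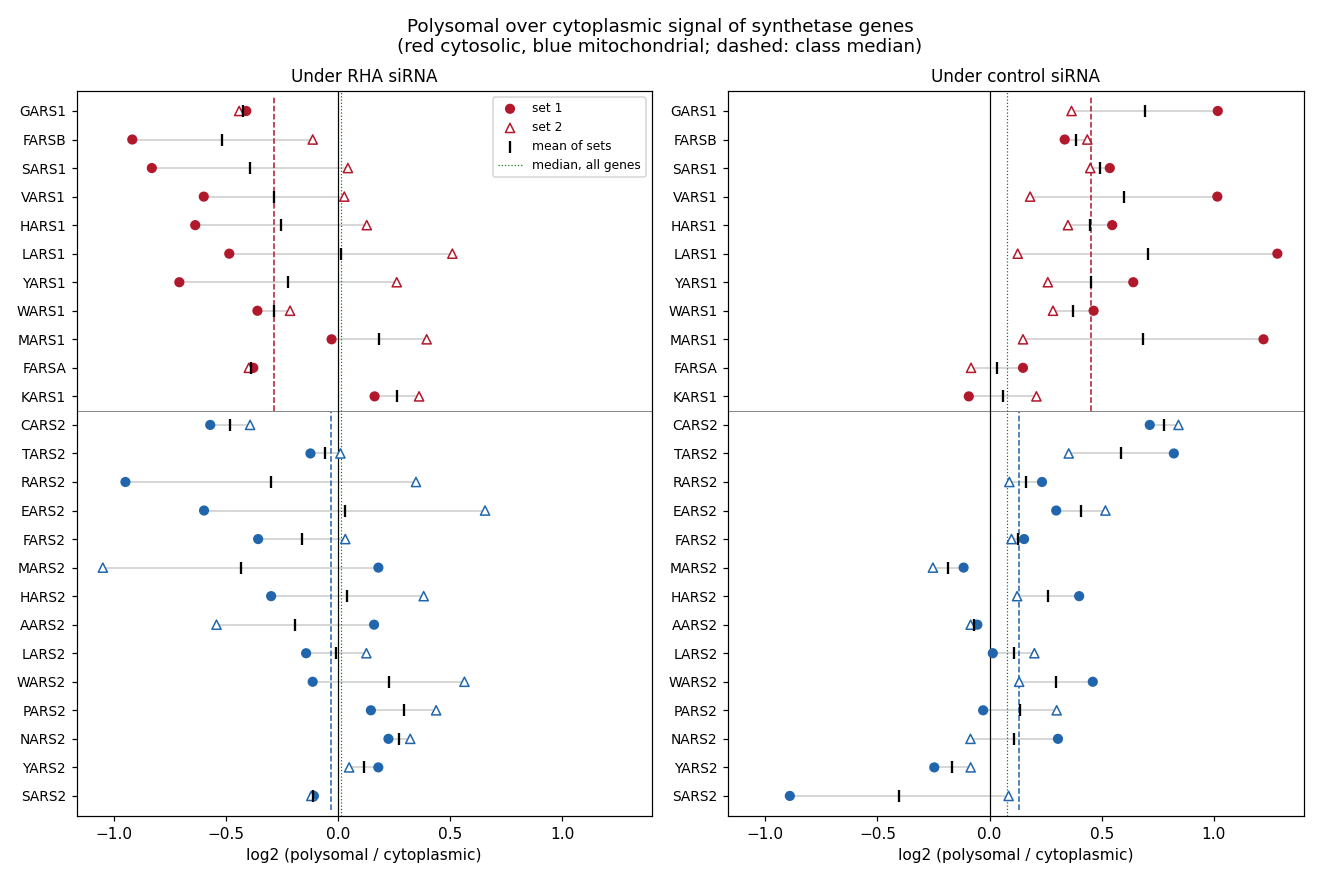
Log2 ratio of polysomal over cytoplasmic intensity (horizontal axis) of 25 synthetase genes under RHA siRNA (left) and control siRNA (right), with set 1 as filled circles, set 2 as open triangles, their mean as a black tick and class medians as dashed lines. The cytosolic median is -0.28 under RHA siRNA and 0.45 under control siRNA, and in set 2 alone it is 0.04 under RHA siRNA and 0.26 under control siRNA.

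MARS1, the cytosolic methionyl-tRNA synthetase, had the smallest p for the ratio over both siRNAs. Under RHA siRNA it read 365 and 295 in polysomal RNA, against 372 and 225 in cytoplasmic RNA. Under control siRNA it read 451 and 353 in polysomal RNA, against 194 and 319 in cytoplasmic RNA. Only the control groups were apart, and the log2 ratio over both was 0.43 (SE 0.30; 0.60 and 0.27 in sets 1 and 2; adjusted p in limma = 1.00). With set as a term, the MARS1 value was 0.14 without the cytoplasmic control array of set 1 and 0.73 without that of set 2.

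TARS2, the mitochondrial threonyl-tRNA synthetase, read 45.6 and 69.9 in polysomal RNA, against 49.7 and 69.3 in cytoplasmic RNA, under RHA siRNA. Under control siRNA it read 63.1 and 68.0 in polysomal RNA, against 35.7 and 53.2 in cytoplasmic RNA. Its log2 ratio was -0.06 under RHA siRNA and 0.59 under control siRNA. Without the array that stood apart, the TARS2 ratio under control siRNA was 0.30, or 0.50 with set as a term.

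MARS2, the mitochondrial methionyl enzyme, had probe sets that disagreed. The brightest read 132 and 64.8 in polysomal RNA, against 116 and 134 in cytoplasmic RNA, under RHA siRNA, and 95.8 and 75.8 in polysomal RNA, against 104 and 90.4 in cytoplasmic RNA, under control siRNA. Its log2 ratio over both siRNAs was -0.31 (SE 0.30), with 0.03 in set 1 and -0.65 in set 2. The name of this MARS2 probe set marks it as one whose probes may match several transcripts. The second tested MARS2 probe set gave a log2 ratio of 0.35 (SE 0.30), so no direction can be given.

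For 7 amino acids both a cytosolic and a mitochondrial enzyme were measured, which sets the 2 classes against each other within the same substrate. For phenylalanine the mean of FARSA and FARSB was used. The mitochondrial probe set was the dimmer in all pairs except tryptophan (mean log2 6.94 for WARS1 and 6.98 for WARS2). SARS2, LARS2 and YARS2 read between 26.6 and 67.3, where the limit for testing was an intensity of 19.9. The part of brightness in the differences between the 2 classes was not tested. The loading change was lower for the cytosolic than for the mitochondrial enzyme in 7 of 7 pairs over both sets, in 7 of 7 in set 1 and in 5 of 7 in set 2, where LARS1 and MARS1 were the exceptions. Without the array that stood apart it was lower in 4 of 7 pairs, or 5 of 7 with set as a term. The leucine and methionine pairs turned in both fits and the tryptophan pair in the first. The largest pooled difference was that of SARS1 minus SARS2 at -1.18 (-2.15 in set 1 and -0.20 in set 2), and the smallest that of MARS1 minus MARS2 at -0.25 (-1.55 in set 1 and 1.04 in set 2). SARS1 minus SARS2 was -0.35 without the array that stood apart, or -0.84 with set as a term. For HARS1 minus HARS2 it was -0.48, and -0.49 and -0.48 in sets 1 and 2, but -1.41 without that array (-0.75 with set as a term). For phenylalanine it was -0.37, with -0.38 and -0.37 in the sets, and -1.001 without that array (-0.78 with set as a term). The polysomal over cytoplasmic ratio under control siRNA was higher for the cytosolic enzyme in 7 of 7 pairs, in 6 of them in both sets, and in 5 of 7 without that array (6 of 7 with set as a term). Pairs were described and not tested, since enzymes of 1 class share all 8 arrays and are not replicates.

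Further probe sets of a gene often disagreed. Of 10 genes with several tested probe sets, 5 had 1 sign for the loading change over all of them (FARSA, HARS1, WARS1, EARS2 and MARS2). KARS1 ranged from -1.94 to 0.21, and LARS1 from -0.69 to 0.57. MARS1, VARS1 and RARS2 had 1 dimmer probe set each above 0, at 0.39, 0.07 and 0.63. For KARS1 the brightest probe set was the exception, and its 3 dimmer ones gave -1.16, -3.43 and -3.02 in set 1 and -0.44, -0.45 and -0.45 in set 2.

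**Figure D5:**
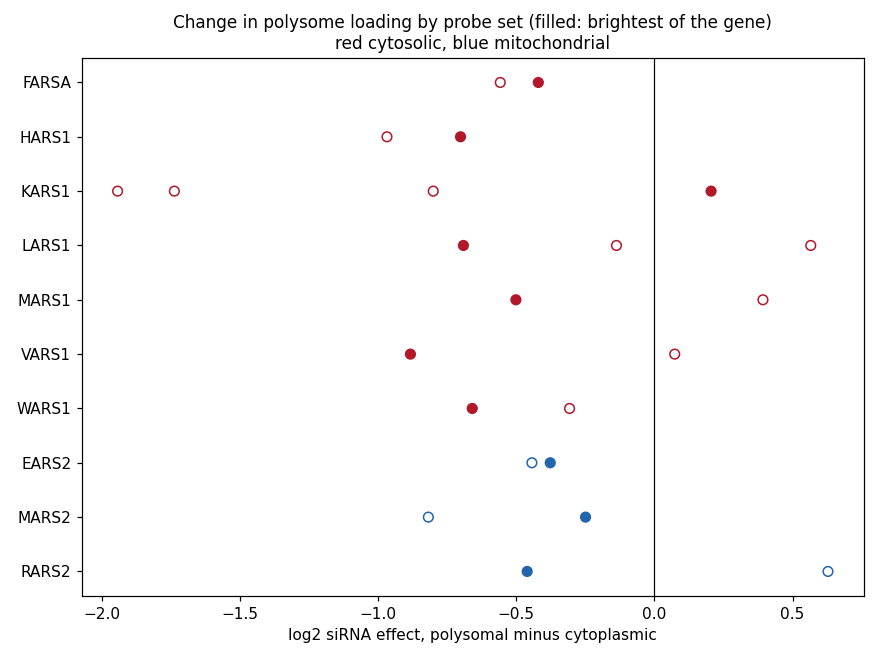
Change in polysome loading (horizontal axis, log2 siRNA effect in polysomal minus cytoplasmic RNA) of each tested probe set of the 10 synthetase genes with more than 1, with the brightest probe set filled, cytosolic genes in red and mitochondrial genes in blue. KARS1 spreads from -1.94 to 0.21, while both probe sets of FARSA, HARS1, WARS1, EARS2 and MARS2 lie below 0.

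AARS2 (alanine), EARS2 (glutamate), FARS2 (phenylalanine), NARS2 (asparagine) and RARS2 (arginine) complete the mitochondrial enzymes. Their loading changes were -0.12, -0.38, -0.29, 0.16 and -0.46, and except for FARS2 each had opposite signs in the sets. Of these 5, RARS2 showed the widest spread, at -1.18 in set 1 and 0.26 in set 2. The cytoplasmic intensity of RARS2 was 92.7 and 116 under RHA siRNA, against 30.5 and 116 under control siRNA. In polysomal RNA it read 48.1 and 148 under RHA siRNA, against 35.8 and 124 under control siRNA. Set 1 thus read lower than set 2 in each group, and least so in cytoplasmic RNA under RHA siRNA.

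The scaffold genes of the multisynthetase complex went in different directions. Besides KARS1, LARS1 and MARS1, its listed members with a tested probe set were the scaffold proteins AIMP1, AIMP2 and EEF1E1. Their loading changes were 0.51 for AIMP1 (0.59 in set 1 and 0.44 in set 2), -0.86 for AIMP2 (-1.40 in set 1 and -0.31 in set 2) and 0.33 for EEF1E1 (0.54 in set 1 and 0.13 in set 2). AIMP1 read 1644 and 1334 under RHA siRNA, against 1561 and 2158 under control siRNA, in polysomal RNA, and 1227 and 1033 under RHA siRNA, against 1755 and 2260 under control siRNA, in cytoplasmic RNA. The cytoplasmic groups of AIMP1 did not overlap and were lower under RHA siRNA (background 8.88% of all genes). Of the 6 complex genes 0 passed the test in either direction in any contrast, and their median loading change was -0.15 (-0.50 in set 1 and 0.20 in set 2).

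Other genes that act on tRNAs were set beside the synthetases. Of 6 tested partners and related genes (AIMP1, AIMP2, EEF1E1, the tRNA exporter XPOT, the deacylase DTD2 and the selenocysteine enzyme SEPSECS) 5 had a loading change above 0 (all genes 46.8%), with a median of 0.34 (all genes -0.03), and 0 passed. The first 3 of these are the scaffold genes already counted above. Mitochondrial translation factors and tRNA enzymes had 15 tested genes, 0 past the test, a median loading change of 0.07 and a median siRNA effect over both fractions of 0.04. MTIF2, the mitochondrial initiation factor, had the smallest p of that list over both fractions (log2 -0.67, with -0.72 in set 1 and -0.62 in set 2). GFM1, a mitochondrial elongation factor, had 0.52 (0.66 in set 1 and 0.38 in set 2).

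ATF4 and amino acid response genes had 15 tested members, of which 0 passed in either direction in any contrast. Their median siRNA effect over both fractions was 0.07 (0.09 in set 1 and 0.17 in set 2), and their median loading change was -0.12. Over both fractions 10 of 15 lay above 0 (all genes 53.8%). In both sets 6 were above 0 (28.1%), namely ATF4, CEBPG, CHAC1, DDIT3, DDIT4 and TRIB3. Below 0 in both were 4 (25.5%), namely ATF3, SHMT2, SLC7A1 and SLC7A11. DDIT3, a stress-induced transcription factor, had the smallest p in that list over both fractions (unadjusted p = 0.00337, adjusted p in limma = 1.00, or 0.140 with set as a term). Its intensities were 541 and 735 under RHA siRNA, against 362 and 391 under control siRNA, in polysomal RNA, and 885 and 667 under RHA siRNA, against 281 and 310 under control siRNA, in cytoplasmic RNA, without overlap in either. ASNS, the asparagine synthetase gene that ATF4 induces, read 422 and 472 under RHA siRNA, against 313 and 533 under control siRNA, in polysomal RNA, with overlap. In cytoplasmic RNA ASNS read 494 and 439 under RHA siRNA, against 271 and 394 under control siRNA, without overlap. ATF4 itself is given after its values were seen. Its cytoplasmic intensity was 5151 and 4582 under RHA siRNA, against 2678 and 3857 under control siRNA, without overlap. Its polysomal values were 3311 and 4819 under RHA siRNA, against 2647 and 4205 under control siRNA, with overlap. ATF3, a stress-induced transcription factor named here after its values were seen, was lower under RHA siRNA without overlap in either fraction. It read 281 and 265 under RHA siRNA, against 320 and 398 under control siRNA, in polysomal RNA. In cytoplasmic RNA ATF3 read 260 and 248 under RHA siRNA, against 261 and 304 under control siRNA, so the gap there was narrow. Among all genes, 11.6% were higher and 8.88% lower under RHA siRNA without overlap in cytoplasmic RNA. In polysomal RNA these shares were 7.97% and 9.03%, and the share for both fractions was not computed.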

How the data were processed

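Of each of 8 samples, 25 ng of RNA was amplified for an Affymetrix rhesus macaque array, per the labels' protocols. The authors deposited linear intensity values per probe set. GCOS and RMA are named, without versions, per the submitters' processing notes. How arrays were normalised is not given in the sources used here. Gene symbols came from the platform's probe annotation. After a log2 transform, control probe sets and the dimmer 50% of the rest, by mean over all arrays, were left out.

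Limma 3.58.1 (R 4.3.3; lmFit, eBayes; two-sided) was run on all 8 arrays with 4 groups and no covariate. Each of 7 contrasts was adjusted by Benjamini-Hochberg over 26383 probe sets (threshold 0.05), and the code was tested on simulated data. Class and list medians take the brightest probe set of a gene and carry no test. Values by set are differences among the 4 arrays of 1 replicate number.

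Replicate numbers come from the sample titles. Deviations from group means correlated at r = 0.680 to 0.868 between arrays of the same number, so an alternative fit had the number as a term (the replicate block). No label says that replicates were separate cultures, and p-values then reflect the spread between these arrays, which may be technical. No counts lie behind array values, so precision is limited by the number of arrays. Fewer cells of a type and less RNA per cell cannot be told apart in bulk RNA.

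Genes shown with every array were the 3 in each direction with the smallest p for the siRNA effect over both fractions, for loading and for polysomal over cytoplasmic RNA, and those with 1 sign in both sets and fractions; others were added after their values were seen. The members and lists were chosen with earlier results of these data known.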

Additional observations from a re-analysis of the deposited data

How the results depend on the processing

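Synthetase call counts were above 0 in 2 of 154 alternatives. In both the lone remaining cytoplasmic control array was that of set 1 and the replicate block was used: 4 synthetase probe sets were called for the cytoplasmic siRNA effect and 2 for polysomal over cytoplasmic RNA under control siRNA. Over all fits with 1 array left out, counts over all probe sets ran from 0 to 1150 for the cytoplasmic siRNA effect, 0 to 954 over both fractions, 0 to 748 for the ratio under control siRNA and 0 to 274 for the ratio over both siRNAs. With the replicate block on all arrays, 2 probe sets were called over both fractions, neither of a synthetase, and 0 in the other 6 contrasts.

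Of 119 class medians under alternatives other than a left-out array, 4 moved by more than the spread between sets. With the upper 25% of probe sets alone, which leaves fewer genes, the mitochondrial median siRNA effect was 0.42 in cytoplasmic RNA and 0.28 over both fractions. With quantile normalization the mitochondrial median ratio was 0.033 under control siRNA and -0.00024 over both siRNAs. The cause was not tested.

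With 1 array left out, with or without the block, the cytosolic median ranged from 0.25 to 0.87 for the cytoplasmic siRNA effect, -0.22 to 0.024 for the polysomal one, 0.026 to 0.39 over both fractions, -1.05 to -0.34 for loading, -0.51 to 0.22 and 0.22 to 0.57 for the ratio under RHA and control siRNA, and -0.033 to 0.33 over both. The mitochondrial median ranged from 0.058 to 0.29, -0.051 to 0.16, -0.014 to 0.13, -0.27 to 0.15, -0.15 to 0.19, -0.037 to 0.23 and -0.050 to 0.23 in the same order. Among the genes chosen by the naming rule, in the contrast that named them, those that changed sign were KARS1 over both fractions (-0.31 to 0.035), SARS2 (-0.38 to 0.96) and PARS2 (-0.037 to 0.35) for loading, and SARS2 for the ratio over both siRNAs (-0.59 to 0.077). Of all 25 genes, without the cytoplasmic control array of set 1, 11 changed sign for the cytoplasmic siRNA effect (3 with the block), 7 for loading (7 with the block) and 6 for the ratio under control siRNA (6 with the block). LARS1 and SARS2 did so in all 3 with either fit. Such a fit leaves 1 array in its group, assumed to vary like the others, and without the block it mixes the difference between sets into the contrast. Dim probe sets limit what mitochondrial values can show.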
